A study of Mus musculus with 8 samples.

Results

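Type 1 conventional dendritic cells (cDC1) of mouse liver were described by their number, marker genes and transcriptome in control mice and in mice with nonalcoholic steatohepatitis (NASH). A cell was taken as cDC1 when its barcode had more than 500 genes and under 25% mitochondrial UMIs, held at least 2 UMIs of Xcr1 and Clec9a together, and held none of Siglech, Cd209a, Csf1r, Cd3e and Cd79a. A UMI (unique molecular identifier) counts 1 captured RNA molecule. The cells were thus selected on the measured counts of these 7 genes, and nothing below rests on a test of them. The gate took 626 of 80474 kept cells (0.778%), of which 455 held both Xcr1 and Clec9a (72.7%), 108 held Clec9a alone and 63 held Xcr1 alone.

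Livers of 8 C57BL/6 mice of genotype WT were dissociated with enzymes at 37 °C after perfusion, red blood cells were lysed, dead cells were removed with beads, and each liver gave 1 droplet library with the 10x Genomics 3′ chemistry. The 2 control mice had normal diet and drinking water. The 3 HFD+F+CCl4 mice had high-fat diet, fructose solution and weekly intraperitoneal CCl4, a liver toxin, and the 3 WD+F+CCl4 mice had western diet with the same fructose and CCl4, both over 16 weeks. The sources used here do not give age, sex or any injection of solvent into control mice, so that diet, sugar and toxin cannot be told apart against control, while the models share all but the diet.

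Dendritic cells take up antigen and show it to T cells. The cDC1 lineage depends on the transcription factors IRF8 and BATF3. It binds debris of dead cells through CLEC9A, senses double-stranded RNA through TLR3, and answers the chemokine XCL1 through XCR1. It is known for cross-presentation, in which antigen from outside the cell is loaded on MHC class I for CD8 T cells. The other conventional lineage, cDC2, carries SIRPA and, in many tissues, CD209A, and serves mainly CD4 T cells. On maturation both lineages raise CCR7, which leads them to lymph nodes, together with FSCN1 and the chemokine CCL22.

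The gate took 65 and 45 cells in control mice 1 and 2, 55, 154 and 126 cells in HFD+F+CCl4 mice 1 to 3, and 48, 52 and 81 cells in WD+F+CCl4 mice 1 to 3. The depth of a cDC1 cell was alike in 7 mice, with a median of 6805 to 10142.5 UMIs, and lower in control mouse 2, with 1489 UMIs. The whole library of control mouse 2 was shallow as well, with 6135827 UMIs against 36699315 to 64855024 in the other mice. The cDC1 cells of a mouse together held 78611 UMIs in control mouse 2 and 369665 to 1498554 in the others, so that 3 UMIs, the limit of a count of 0, stood for 38.2 CPM (UMIs scaled to a common total per mouse) there and for 2.00 to 8.12 CPM elsewhere. Of the kept barcode sequences, 732 of 79739 occurred in more than 1 library, but none of these was gated in more than 1.

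The label was checked with the 20 other cDC1 markers that the gate had not used. Their summed level was 10170 and 10570 CPM in control mice, 9977, 11530 and 10890 CPM in HFD+F+CCl4 mice, and 10260, 10970 and 8241 CPM in WD+F+CCl4 mice. The same genes summed to 1593 to 2805 CPM in cDC2 cells and to 1461 to 2568 CPM in all other kept cells of the 8 mice. Every mouse thus held more of these markers in the gate than any mouse held outside it.

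A minority of gated cells carried endothelial genes. At least 3 UMIs over Pecam1, Stab2, Clec4g, Lyve1 and Kdr were present in 52 of the 626 cells: 3 and 1 in control mice, 12, 2 and 1 in HFD+F+CCl4 mice, and 0, 0 and 33 in WD+F+CCl4 mice. These 52 cells held 7233 CPM of the endothelial genes and 2579 CPM of the 20 other cDC1 markers, against 22.3 and 11094 CPM in the remaining 574 cells. Irf8 was detected in 65.4% of the 52 and in 97.6% of the 574, and 48 of the 52 had entered by Clec9a alone. In WD+F+CCl4 mouse 3 they made 40.7% of the gate and in HFD+F+CCl4 mouse 1 21.8%. The data therefore go against the label for most of these cells. A few close to the threshold held many cDC1 UMIs. The cell of HFD+F+CCl4 mouse 3 had 3 endothelial UMIs and 250 UMIs of the other cDC1 markers. Shares are given for the whole gate unless stated, and gene levels and tests for the 574 other cells, a choice made after the data were seen, with the adjusted p of the whole gate beside that of a called gene.

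**Figure D1:**
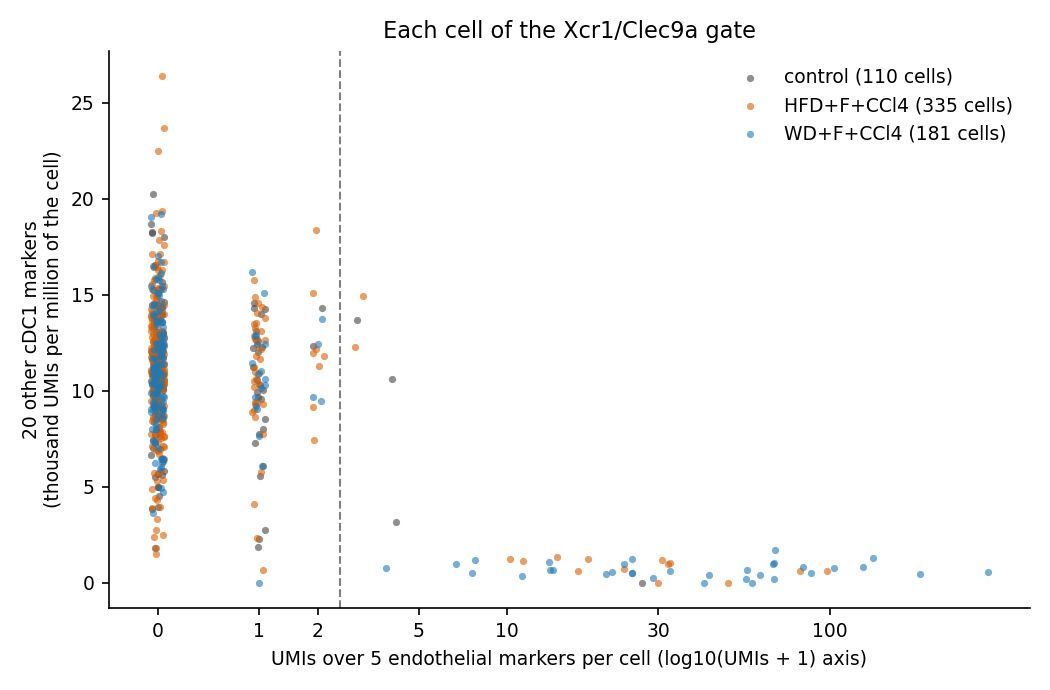
Each point is 1 gated cell: UMIs over the 5 endothelial markers on the horizontal log axis, level of the 20 other cDC1 markers per UMI of the cell on the vertical axis, coloured by group, with a dashed line at the threshold of 3 UMIs. Most of the 52 cells right of the line lie near 0 in cDC1 markers, apart from a few close to the line, and 33 of them come from WD+F+CCl4 mouse 3.

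At the edge of the rule, 133 cells had exactly 2 UMIs of Xcr1 and Clec9a and held 6405 CPM of the other cDC1 markers, 63 cells with 3 UMIs held 7911 CPM, and 430 cells with 4 or more held 11461 CPM. Just outside, 501 cells with 1 UMI held 3245 CPM. Another 530 cells were left out by Csf1r alone and held 7725 CPM of the cDC1 markers with 7065 CPM of monocyte-macrophage genes. They were spread unevenly, with 25 and 6 in control mice, 83, 116 and 131 in HFD+F+CCl4 mice, and 37, 40 and 92 in WD+F+CCl4 mice. A further 540 cells, left out by another gene, held 6695 CPM of the cDC1 markers. They numbered 110 and 28, then 13, 92 and 81, then 89, 55 and 72 in the same order. As background, at least 2 UMIs of the pair were present in 26 of 5119 B cells (0.508%, median depth 1852 UMIs) and in 60 of 7353 T cells (0.816%, median depth 3140 UMIs), where free RNA and doublets cannot be told apart. No doublet caller was run. Of the cDC1 cells of control mouse 1, 47.7% lay above the 95th percentile of UMIs of their own library, against 3.70% to 25.4% in the other mice.

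Among the 574 cells without endothelial markers, the levels of Xcr1 and Clec9a are a description, since both chose the cells. Xcr1 lay at 765 and 992 CPM in control mice, 708, 617 and 649 CPM in HFD+F+CCl4 mice, and 385, 476 and 468 CPM in WD+F+CCl4 mice. Clec9a, the other gate gene, lay at 392 and 708 CPM, at 399, 453 and 367 CPM, and at 322, 287 and 349 CPM in the same order. Both genes were lowest in the WD+F+CCl4 mice, and nothing is read from this order.

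Genes of the lineage outside the rule did not pass the test in NASH against control. Tlr3 lay at 240 and 322 CPM in control mice, 214, 308 and 213 CPM in HFD+F+CCl4 mice, and 256, 323 and 320 CPM in WD+F+CCl4 mice, with full overlap. Irf8 lay at 2038 and 2125 CPM, 2318, 2264 and 1969 CPM, and 1855, 1904 and 2230 CPM, again with overlap. Batf3 lay at 226 and 180 CPM in control mice, 333, 307 and 316 CPM in HFD+F+CCl4 mice, and 313, 298 and 339 CPM in WD+F+CCl4 mice, so that the groups did not overlap, but its log2 fold change of 0.53 (SE 0.20) had an edgeR adjusted p of 0.270. Itgae, the integrin CD103 that many tissue cDC1 carry, lay at 87.8 and 116 CPM in control mice and 129 to 204 CPM in NASH mice (log2 fold change 0.74, SE 0.25, edgeR adjusted p = 0.202). Cadm1, an adhesion molecule of the lineage, lay at 328 and 605 CPM in control mice, 245, 218 and 328 CPM in HFD+F+CCl4 mice, and 168, 166 and 210 CPM in WD+F+CCl4 mice (log2 fold change of NASH against control -1.05, SE 0.25, edgeR adjusted p = 0.0558). In WD+F+CCl4 against control alone it fell by 1.32 on the log2 scale (SE 0.28, edgeR adjusted p = 0.0390; 0.157 in the whole gate). It was the only call among 20 tested cDC1 markers, where 1.08% of all genes passed. Its difference between the models had an edgeR adjusted p of 0.9999.

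**Figure D2:**
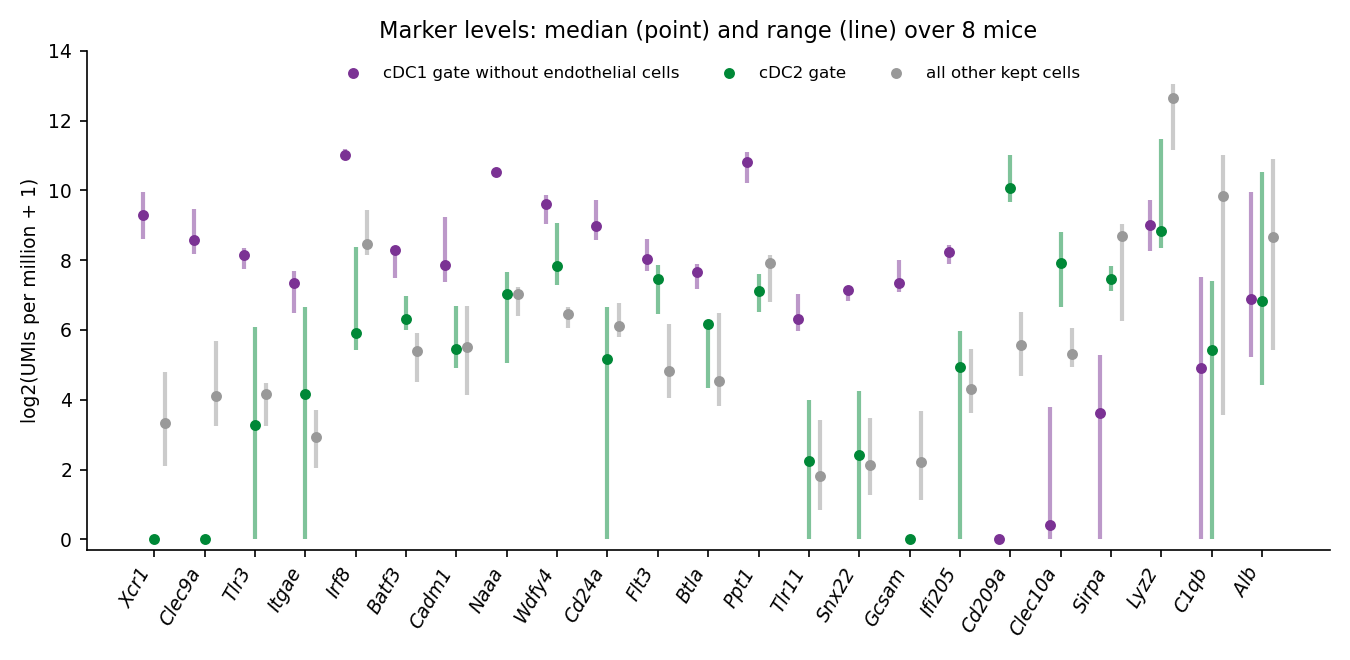
Marker levels as log2(CPM + 1): points are medians and lines the range over the 8 mice, for cDC1 without endothelial cells, cDC2 and all other kept cells. Xcr1 and Clec9a, and Cd209a for cDC2, are fixed by the gates; Irf8, Naaa, Ppt1 and Snx22 of cDC1 lie above both other sets in each mouse, while the ranges of Alb overlap.

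The first comparison asked whether cDC1 were more or less frequent in NASH livers. Their share of kept cells was 0.603% and 1.08% in control mice, 0.492%, 1.52% and 1.18% in HFD+F+CCl4 mice, and 0.400%, 0.528% and 0.691% in WD+F+CCl4 mice. NASH mice lay on both sides of control, with 0.803% ± 0.449 (SD, n = 6) against 0.841% ± 0.337 (SD, n = 2). They differed by -0.0385 percentage points (exact two-sided permutation test, p = 0.929, Benjamini-Hochberg adjusted over 4 share measures 0.929). With 6 against 2 mice this test cannot go below 0.0714. Without the endothelial cells the difference was -0.0823 points (exact permutation p = 0.786), and with the 530 cells that Csf1r had left out it turned to 0.543 points (exact permutation p = 0.429). With each cell thinned to 1000 UMIs it was -0.550 points (exact permutation p = 0.214).

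Between the models, the share of kept cells was 1.07% ± 0.525 (SD, n = 3) with HFD+F+CCl4 and 0.540% ± 0.146 (SD, n = 3) with WD+F+CCl4. The difference of -0.526 points was within the spread of the mice (exact two-sided permutation test, p = 0.300, smallest possible 0.1, adjusted over 4 measures 0.533). It was -0.812 points without HFD+F+CCl4 mouse 1 and -0.298 points without HFD+F+CCl4 mouse 2. Without the endothelial cells the difference was -0.574 points (exact permutation p = 0.4). HFD+F+CCl4 mouse 1 then lay at 0.385%, below each WD+F+CCl4 mouse at 0.400% to 0.528%. The shares depend on depth, since 2 UMIs are found more easily in a deep cell. When each cell was thinned to 1000 UMIs, too shallow cells were left out, 1176 of WD+F+CCl4, 1552 of HFD+F+CCl4 and 2694 of control mice. The WD+F+CCl4 mice lay at 0.0863% to 0.194% and the HFD+F+CCl4 mice at 0.228% to 0.766%, without overlap (exact permutation p = 0.1, the smallest this design allows). Cells with endothelial markers were not left out before thinning. At a fixed number of UMIs a cell passes by its Xcr1 and Clec9a per UMI. The thinned share is thus no measure of cell number alone, and the part of the gate genes in this gap was not tested. The share of 1 cell type also moves with the other cells that a dissociation frees.

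Set against cDC2 cells, which were gated in the same way by Cd209a, cDC1 made a smaller part in most NASH mice. They were 75.6% and 72.6% of the cDC1 and cDC2 cells together in control mice, 44.7%, 61.1% and 75.9% in HFD+F+CCl4 mice, and 36.6%, 25.9% and 63.8% in WD+F+CCl4 mice. All but HFD+F+CCl4 mouse 3 lay below both control mice. The means were 51.3% ± 18.8 (SD, n = 6) and 74.1% ± 2.12 (SD, n = 2), and the difference of -22.7 points did not pass (exact two-sided permutation p = 0.214, adjusted 0.429). After thinning to 1000 UMIs each NASH mouse lay below both control mice, at 8.70% to 65.3% against 65.7% and 73.0%, a difference of -38.2 points at the smallest p the design allows (exact permutation p = 0.0714, adjusted 0.286). Thinning acted unequally on the gates. The cDC1 cells fell in each mouse, from 48 to 10 in WD+F+CCl4 mouse 1 and from 154 to 73 in HFD+F+CCl4 mouse 2. The cDC2 cells rose in these mice, from 83 to 104 and from 98 to 116, and in control mouse 1, from 21 to 24. They fell in the others, as from 149 to 126 in WD+F+CCl4 mouse 2 and from 17 to 10 in control mouse 2. At a fixed number of UMIs both gates depend on the level of their genes, and the part of this in the thinned ratio was not tested. The control ratio rested on 21 and 17 cDC2 cells.

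Cells with at least 3 UMIs over 16 cell cycle genes, called cycling here, made 18.5% and 6.67% of cDC1 in control mice, 21.8%, 35.1% and 18.3% in HFD+F+CCl4 mice, and 29.2%, 32.7% and 11.1% in WD+F+CCl4 mice. The mean was 12.6% ± 8.34 (SD, n = 2) in control mice and 24.7% ± 9.23 (SD, n = 6) in NASH mice, and the difference of 12.1 points did not pass (exact two-sided permutation p = 0.214, adjusted 0.429). It was 18.02 points without control mouse 1 and 6.22 points without control mouse 2. Cycling cells were deeper than the others, with a median of 10343 against 7134 UMIs in control mouse 1 and 13099.5 against 8733.5 in HFD+F+CCl4 mouse 2, and the difference was 4.48 points after thinning (exact permutation p = 0.286), when 0 of 27 cells of control mouse 2 were cycling, against 3 of 45 before. Among barcodes with more than 1000 genes it turned to -1.53 points (exact permutation p = 0.929), with 9 cells left in control mouse 2. Without endothelial cells it was 14.7 points (exact permutation p = 0.143). Without cells over the 95th UMI percentile it was 16.6 points, with 6 of 6 NASH mice above both control mice (exact permutation p = 0.0714, the smallest possible). This filter itself removes deep, cycling cells. It left 1 of 12 and 1 of 3 of them in control mice 1 and 2. In HFD+F+CCl4 mice 1 to 3 it left 11 of 12, 28 of 54 and 10 of 23, and in WD+F+CCl4 mice 1 to 3 10 of 14, 13 of 17 and 8 of 9.

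Mature cDC1, with a UMI each of Ccr7 and Fscn1, were few. They made 3.08% and 0% of cDC1 in control mice, 1.82%, 0% and 2.38% in HFD+F+CCl4 mice, and 0% in the 3 WD+F+CCl4 mice. There, 0 of 181 cells allows a share of cells with both UMIs of up to 1.66%, and 0 of the 148 cells without endothelial markers of up to 2.03% (counting error only); a cell with no UMI may still express the genes. NASH and control differed by -0.839 points (exact two-sided permutation p = 0.571, adjusted 0.762), and by -0.825 points without endothelial cells (exact permutation p = 0.571). Cells that lose Xcr1 and Clec9a as they mature would not pass the gate.

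**Figure D3:**
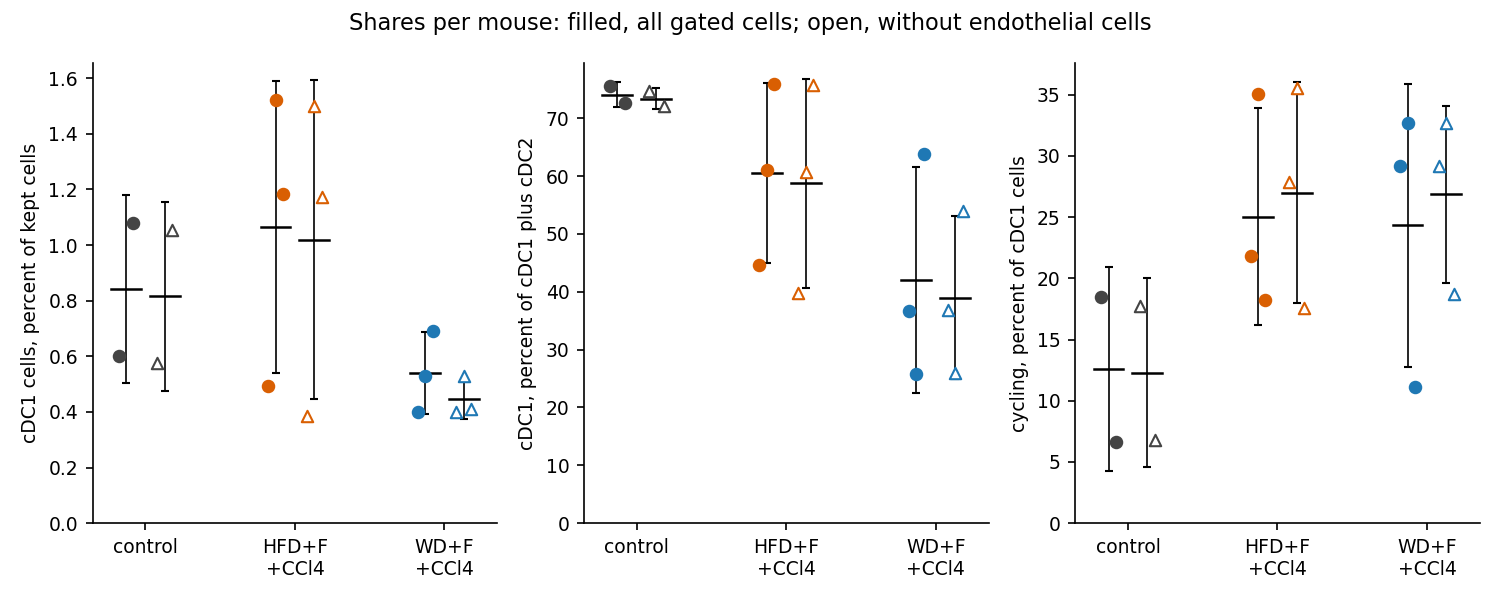
Shares per mouse in percent, by group, for all gated cells (filled circles) and without endothelial cells (open triangles), with the mean and SD of each group: cDC1 of kept cells (left), cDC1 of cDC1 plus cDC2 cells (middle), cycling cDC1 (right). NASH mice lie on both sides of control in the left panel, and HFD+F+CCl4 mouse 3 reaches the control level in the middle one.

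For the transcriptome, UMIs were summed over the cDC1 cells of each mouse and compared with edgeR. In the whole gate 10 of 7299 genes passed an adjusted p of 0.05 in NASH against control (0.137%), 1 higher (0.0137%) and 9 lower (0.123%), and 642 had an unadjusted p under 0.05. Without the 52 endothelial cells 95 of 6409 genes passed (1.48%), 16 higher (0.25%) and 79 lower (1.23%), and these held all of the 10. Of the 6409 genes 839 had an unadjusted p under 0.05. Taken singly, HFD+F+CCl4 against control gave 3 genes in the whole gate (0.0411%) and 48 without endothelial cells (0.749%), and WD+F+CCl4 against control gave 2 (0.0274%) and 69 (1.08%); both models share the control mice. When HFD+F+CCl4 mouse 1 and WD+F+CCl4 mouse 3, the mice with most endothelial cells, were left aside, the whole gate gave 121 genes, 88 of them shared with the 95. Without control mouse 1, and without endothelial cells, 9 genes passed, 7 of them shared with the 95. This leaves control mouse 2 alone as control, with 44 cells and 77658 UMIs, and assumes that it varies like the mice of the other groups.

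Much of this difference was not particular to cDC1. Of the 95 genes, 91 had the same sign in all other kept cells and 80 had control and NASH mice apart the same way there, where 20.6% of genes were apart upward and 26.5% downward. Some genes, chosen after their values were seen, were nearly on or off by library. mt-Nd3, a mitochondrial subunit of complex I, had 0 UMIs in both control mice and 567 to 947 CPM in NASH mice, at least 136-fold higher with 3 UMIs over the control group as the floor, and 3.15 and 4.59 CPM against 520 to 1403 CPM in all other cells. Gm28438 lay at 248 and 129 CPM in control mice and at 0 to 3.15 CPM in NASH mice. Rpsa-ps10, a ribosomal protein pseudogene, was high in control mouse 1 alone, at 554 and 25.8 CPM against 2.59 to 16.8 CPM. Its 25.8 CPM in control mouse 2 lay under the 38.6 CPM that a count of 0 allows there. In all other kept cells its groups overlapped. The control libraries differ from all NASH libraries in mt-Nd3 and Gm28438, so that library preparation or counting and group cannot be told apart. Near-identical copies make the values of pseudogenes uncertain.

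Of the 16 genes that rose without endothelial cells, only mt-Nd3 passed in the whole gate. Psmb8 (chr17:34197721-34201454, GRCm38, plus strand), a catalytic subunit of the immunoproteasome that cuts peptides for MHC class I, lay at 574 and 541 CPM in control mice, 991, 1082 and 1347 CPM in HFD+F+CCl4 mice, and 1272, 1037 and 1380 CPM in WD+F+CCl4 mice. It rose by 1.03 on the log2 scale (SE 0.21, edgeR adjusted p = 0.0279; 0.382 in the whole gate). In cDC2 cells Psmb8 lay at 550 and 432 CPM in control mice and 532 to 884 CPM in NASH mice, and the responses of the 2 cell types did not differ beyond error (log2 difference 0.40, SE 0.26, edgeR adjusted p = 0.756). Psmb8 was the only called member of 20 genes for MHC class I and cross-presentation, where 0.25% of all genes were called higher. The median log2 fold change of the 20 was 0.00 against 0.02 for all genes, and Psmb8 had the second smallest rise of the 16. H2-K1, a class I heavy chain, had a log2 fold change of -0.57 (edgeR adjusted p = 0.201).

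Sdf2l1, a cofactor of the chaperone BiP, lay at 87.8 and 64.4 CPM in control mice, 164, 216 and 245 CPM in HFD+F+CCl4 mice, and 288, 261 and 289 CPM in WD+F+CCl4 mice. It rose by 1.499 on the log2 scale (SE 0.27, edgeR adjusted p = 0.0137; 0.183 in the whole gate). Sec61g, a subunit of the channel that carries proteins into the endoplasmic reticulum, lay at 103 CPM in both control mice and at 182 to 296 CPM in NASH mice (log2 fold change 1.30, SE 0.27, edgeR adjusted p = 0.0279; 0.345 in the whole gate). Asna1, the ATPase that delivers tail-anchored proteins to that membrane, lay at 9.75 and 12.9 CPM and at 37.7 to 74.0 CPM (log2 fold change 2.34, SE 0.46, edgeR adjusted p = 0.0188; 0.0868 in the whole gate). Each of these genes was higher in 6 of 6 NASH mice than in either control mouse, as were 12.8% of all genes tested, while 7.22% were lower in all 6. In control mouse 2 the levels of Asna1, and of Ptpn1 and Cfp below, lay under 38.6 CPM, the limit of a count of 0 there. Sdf2l1, Sec61g and Asna1 were also apart in all other kept cells, at 42.6 and 45.7 against 58.5 to 104 CPM for Sdf2l1 and 26.3 and 36.5 against 53.1 to 71.1 CPM for Asna1.

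Ptpn1, a tyrosine phosphatase that dampens cytokine and insulin receptors, lay at 54.6 and 25.8 CPM in control mice, 145, 129 and 139 CPM in HFD+F+CCl4 mice, and 161, 155 and 160 CPM in WD+F+CCl4 mice. It rose by 1.53 on the log2 scale (SE 0.28, edgeR adjusted p = 0.0140; 0.112 in the whole gate), with 123 and 125 against 313 to 482 CPM in all other cells. Uqcrc1, a core subunit of respiratory complex III, rose by 1.18 (SE 0.27, edgeR adjusted p = 0.0446; 0.143 in the whole gate), from 60.5 and 77.3 CPM to 129 to 193 CPM. Cfp, the complement activator properdin, rose by 1.48 (SE 0.34, edgeR adjusted p = 0.0492; 0.143 in the whole gate), from 29.3 and 12.9 CPM to 62.5 to 97.9 CPM, while all other cells held 28.1 and 44.8 against 154 to 380 CPM. Tmem160, Nudc and Pcbd2 rose as well, by 1.69, 1.24 and 1.69 on the log2 scale (edgeR adjusted p in the whole gate 0.112, 0.237 and 0.302).

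Clec1a, a C-type lectin receptor, was at 4 and 0 UMIs in control mice and at 13 to 86 UMIs in NASH mice, which is 7.80 and 0 CPM against 29.5 to 62.1 CPM (log2 fold change 2.73, SE 0.58, edgeR adjusted p = 0.0313; 0.120 in the whole gate). The cDC2 cells of the 8 mice held 0 to 10.9 CPM. Clec1a (chr6:129424772-129452000, GRCm38, minus strand) ends 8 bases from the end of Clec9a (chr6:129408862-129424763, plus strand), a gate gene, so that both 3′ ends face each other; a part of this in the result was not tested. Of genes named in WD+F+CCl4 against control alone, Plac8 lay at 577 and 605 CPM in control mice, 748, 1217 and 1000 CPM in HFD+F+CCl4 mice, and 2625, 1591 and 1428 CPM in WD+F+CCl4 mice (log2 fold change 1.63, SE 0.31, edgeR adjusted p = 0.0245; 0.404 in the whole gate). Its difference between the models had an edgeR adjusted p of 0.733.

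**Figure D4:**
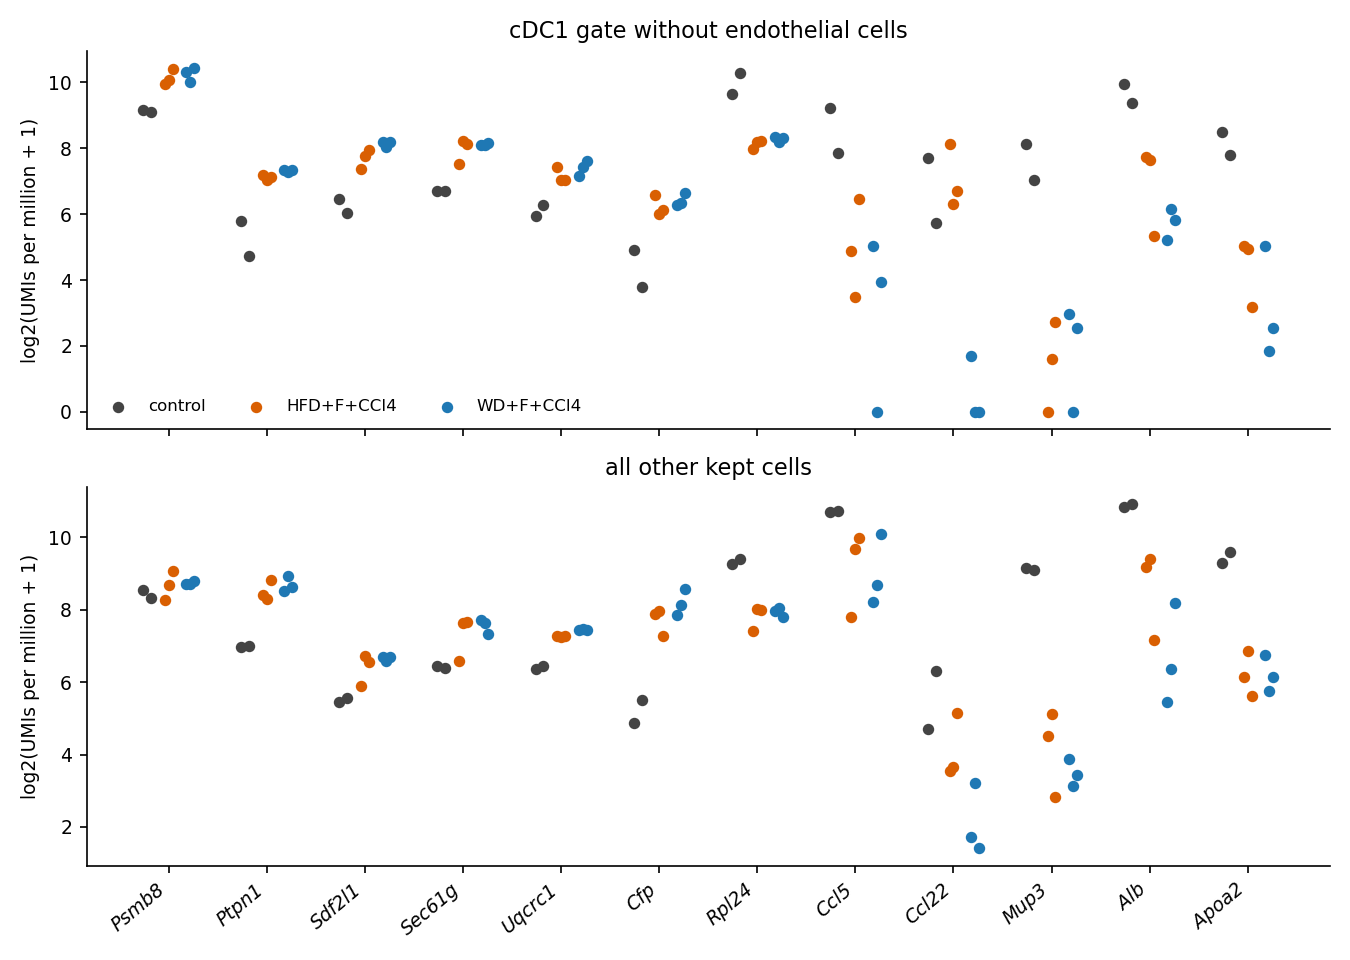
Levels per mouse as log2(CPM + 1) for 12 genes that passed in NASH against control, in cDC1 without endothelial cells (top) and in all other kept cells (bottom), each point 1 mouse coloured by group. In cDC1, Psmb8, Ptpn1, Sdf2l1 and Sec61g are higher in each NASH mouse than in either control mouse and Mup3, Alb and Rpl24 lower, whereas Ccl22 is low in WD+F+CCl4 mice alone; the bottom panel shows most genes moving the same way.

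Among the 79 genes that fell were hepatocyte genes. Of 7 hepatocyte markers 6 fell, where 1.23% of all genes did (1 in the whole gate, where 0.123% did), with a median log2 fold change of -3.73 against 0.02 for all genes. Alb, serum albumin, lay at 995 and 657 CPM in control mice, 211, 199 and 39.2 CPM in HFD+F+CCl4 mice, and 36.3, 69.9 and 54.9 CPM in WD+F+CCl4 mice (log2 fold change -3.33, SE 0.41, edgeR adjusted p = 0.00104; 0.0816 in the whole gate). Mup3, a major urinary protein whose gene family has near-identical copies, lay at 279 and 129 CPM in control mice and at 0 to 6.80 CPM in NASH mice (log2 fold change -5.96, SE 0.45, edgeR adjusted p = 8.38e-06; 0.00598 in the whole gate). The 7 markers summed to 2413 and 1738 CPM in control cDC1 against 76.8 to 393 CPM in NASH cDC1, and to 4367 and 5543 against 361 to 1636 CPM in all other kept cells. Hepatocyte transcripts were thus lower in NASH libraries outside cDC1 too, and the part of free RNA in the result was not tested.

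Single lymphocyte genes were also called lower, namely the 1 T cell marker tested, 1 of 2 NK cell markers and 1 of 2 B cell markers, where 1.23% of all genes were. Trbc2, a T cell receptor constant gene and the most abundant of 4 T cell markers, passed in the whole gate as well (edgeR adjusted p = 0.0312 there), and these markers summed to 60.5 and 425 CPM in control cDC1 and 0 to 9.55 CPM in NASH cDC1. Nkg7, of NK cells, lay at 44.9 and 232 CPM against 0 to 34.0 CPM (edgeR adjusted p = 0.0280; 0.144 in the whole gate). The 4 NK cell markers together overlapped, at 68.3 and 451 CPM in control mice against 3.15 to 177 CPM in NASH mice, WD+F+CCl4 mouse 1 being highest of these. Igkc, of B cells, lay at 187 and 476 CPM against 7.76 to 84.7 CPM (edgeR adjusted p = 0.00236; 0.0563 in the whole gate). Ccl5, a chemokine that T and NK cells make and dendritic cells can make, lay at 589 and 232 CPM in control cDC1, 28.3, 10.1 and 86.4 CPM in HFD+F+CCl4 mice, and 31.7, 0 and 14.3 CPM in WD+F+CCl4 mice (log2 fold change -4.13, SE 0.61, edgeR adjusted p = 0.00352; 0.09999 in the whole gate). All other kept cells held 1661 and 1684 CPM of Ccl5 in control mice and 219 to 1083 CPM in NASH mice, and whether the transcripts arose in cDC1 was not tested.

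Of 88 ribosomal protein genes tested 12 fell (13.6%, against 1.23% of all genes) and none rose, and each of the 12 was also lower in all other kept cells of every NASH mouse than in control. In the whole gate 1 of 89 fell, namely Rpl24. Rpl24 lay at 794 and 1236 CPM in control mice, 252, 292 and 296 CPM in HFD+F+CCl4 mice, and 324, 292 and 313 CPM in WD+F+CCl4 mice (log2 fold change -1.79, SE 0.18, edgeR adjusted p = 0.000238). It was lower in 6 of 6 NASH mice (adjusted p = 0.0219 by edgeR in the whole gate).

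Hmgcs1, an early enzyme of sterol synthesis, fell by 1.79 on the log2 scale (SE 0.40, edgeR adjusted p = 0.0409; 0.0917 in the whole gate), from 66.3 and 129 CPM in control mice to 18.1 to 50.3 CPM in NASH mice. In all other kept cells it was also lower in each NASH mouse than in control, with a log2 ratio of -1.18.

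Other groups showed no or few calls. None of 11 MHC class II genes passed: Cd74, the invariant chain, lay at 18870 and 13970 CPM in control mice, 21170, 16960 and 20570 CPM in HFD+F+CCl4 mice, and 19210, 18260 and 20730 CPM in WD+F+CCl4 mice. None passed of 22 tested interferon-stimulated genes (median 0.22), 16 immediate early genes (median 0.68), 10 heat shock genes, 18 dendritic cell transcription factors, 19 growth factor and cytokine receptors (median -0.30), 9 co-stimulation and checkpoint genes, 5 cytokines and 10 pattern recognition and uptake receptors. Of 12 tested chemokines and receptors Ccl5 and Ccl22 passed, both lower, and of 8 tested maturation genes Ccl22 and Apol7c fell, though for both the control and NASH mice overlapped and neither passed in the whole gate (edgeR adjusted p = 0.0868 and 0.259). Of all genes 1.23% were called lower. Of 30 cell cycle genes 28 had a fold change above 0 (93.3%, against 51.4% of all genes; median 0.64), but none passed.

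The list of 12 genes that mark lipid-associated macrophages summed to 1664 and 1532 CPM in control cDC1, 5167, 2765 and 2007 CPM in HFD+F+CCl4 mice, and 1864, 2639 and 2634 CPM in WD+F+CCl4 mice, without overlap between control and NASH. All other kept cells held 2378 and 2864 CPM in control mice and 13200 to 41340 CPM in NASH mice, and the part of other cells or free RNA in the cDC1 sums was not tested. Among all genes tested in cDC1, 12.8% were higher in each NASH mouse than in either control mouse. Of 11 tested genes of the list 8 were above 0, with a median log2 fold change of 0.83 against 0.02 for all genes, and none passed. Trem2, a lipid receptor of these macrophages, had 0 UMIs in both control mice and 1 to 30 UMIs in NASH mice, at 1.60 to 37.7 CPM against 112 to 389 CPM in all other kept cells of NASH mice. In control mouse 2 a count of 0 allows up to 38.6 CPM, above each of these NASH levels in cDC1. Spp1, osteopontin, lay at 17.6 and 25.8 CPM in control cDC1, 81.8, 34.9 and 19.2 CPM in HFD+F+CCl4 mice, and 15.9, 639 and 33.4 CPM in WD+F+CCl4 mice, so that WD+F+CCl4 mouse 2 stood alone (edgeR adjusted p = 0.577).

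The models were then compared with each other. In the whole gate 0 of 7299 genes passed edgeR in WD+F+CCl4 against HFD+F+CCl4 (0%), 170 had an unadjusted p under 0.05, and DESeq2 called 5. Without endothelial cells 1 of 6409 passed (0.0156%), namely Ccl22. This chemokine of mature dendritic cells, which draws regulatory T cells through CCR4, lay at 209 and 51.5 CPM in control mice, 280, 78.6 and 102 CPM in HFD+F+CCl4 mice, and 2.27, 0 and 0 CPM in WD+F+CCl4 mice (edgeR adjusted p = 0.0206; 0.207 in the whole gate). It no longer passed without WD+F+CCl4 mouse 1, 2 or 3 (edgeR adjusted p = 0.540, 0.385 and 0.126). The WD+F+CCl4 mice held 1 UMI of Ccl22 in all and the HFD+F+CCl4 mice 334, a ratio per UMI of 136 in favour of HFD+F+CCl4 (exact 95% counting interval 24.3 to 5396, which leaves the spread between mice out). Few cells carried it: 9 and 2 cells in control mice, 6, 8 and 14 in HFD+F+CCl4 mice, and 1, 0 and 0 in WD+F+CCl4 mice, and in HFD+F+CCl4 mouse 2 a single cell held 95 of 117 UMIs. In all other kept cells Ccl22 lay at 25.1 and 77.3 CPM in control mice, 10.6, 11.6 and 34.1 CPM in HFD+F+CCl4 mice, and 2.28, 8.31 and 1.66 CPM in WD+F+CCl4 mice, so that each WD+F+CCl4 mouse lay below every other mouse there too.

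As a sum, the other 11 genes of the maturation list lay on the same side without endothelial cells. They summed to 568 and 309 CPM in control cDC1, 274, 173 and 655 CPM in HFD+F+CCl4 cDC1, and 109, 114 and 119 CPM in WD+F+CCl4 cDC1, so that the WD+F+CCl4 mice lay below all others. In the whole gate the models overlapped, at 281, 174 and 646 CPM against 109, 114 and 220 CPM. Of single genes, 5.26% lay below the HFD+F+CCl4 mice in every WD+F+CCl4 mouse. The 7 tested members were below 0 in WD+F+CCl4 against HFD+F+CCl4, with a median of -3.23 against 0.01 for all genes, and 6 had an unadjusted p under 0.05 where 4.07% of all genes had, but none passed. In the whole gate 7 of 8 were below 0, with a median of -1.40, and 5 had an unadjusted p under 0.05. Relb, an NF-κB subunit of maturation, lay at 37.1 and 38.6 CPM in control mice, 88.1, 37.0 and 103 CPM in HFD+F+CCl4 mice, and 29.5, 33.6 and 23.9 CPM in WD+F+CCl4 mice (edgeR adjusted p = 0.761). Il12b, the p40 chain of interleukin 12, had 10 and 0 UMIs in control mice, 5, 9 and 51 in HFD+F+CCl4 mice, and 0 in the 3 WD+F+CCl4 mice. Ccr7 had 40 and 0 UMIs, 1, 12 and 100 UMIs, and 0 UMIs in that order. Of the cells with Ccl22, 3 of 9 and 0 of 2 in control mice and 1 of 6, 1 of 8 and 6 of 14 in HFD+F+CCl4 mice also held Ccr7. In cDC2 cells the 11 genes did not separate the models, at 348, 215 and 433 CPM with HFD+F+CCl4 against 350, 383 and 320 CPM with WD+F+CCl4, and in all other kept cells they summed to 383, 259 and 618 against 208, 298 and 273 CPM.

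Interferon-stimulated genes lay the other way. Of 22 tested, 17 were above 0 in WD+F+CCl4 against HFD+F+CCl4 (77.3%, against 51.4% of all genes), the median was 0.45, 9 had an unadjusted p under 0.05, and none passed. Ifitm3, a membrane protein that restricts viruses, lay at 324 and 554 CPM in control mice, 465, 619 and 323 CPM in HFD+F+CCl4 mice, and 1725, 851 and 645 CPM in WD+F+CCl4 mice (log2 fold change 1.22, SE 0.34, edgeR adjusted p = 0.733). Bst2, tetherin, lay at 137 and 193 CPM, at 145, 163 and 182 CPM, and at 336, 212 and 256 CPM in the same order. Both genes separated the models without overlap, as 5.15% of all genes did upward, and all 32 genes summed to 1933 and 2910 CPM in control cDC1, 2440, 2165 and 1703 CPM with HFD+F+CCl4, and 4249, 2685 and 2608 CPM with WD+F+CCl4. The same list was also higher in WD+F+CCl4 mice in cDC2 cells, at 5094 to 7113 against 4170 to 4803 CPM, and in all other kept cells, at 4208 to 7728 against 3283 to 3795 CPM.

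Immediate early genes set apart HFD+F+CCl4 mouse 1 and, less, WD+F+CCl4 mouse 3. The 16 genes summed to 1389 and 1249 CPM in control cDC1, 4893, 985 and 1484 CPM in HFD+F+CCl4 mice, and 1016, 1032 and 3028 CPM in WD+F+CCl4 mice. Jun, of the AP-1 factor, lay at 42.9 and 0 CPM, at 755, 34.9 and 70.4 CPM, and at 11.3, 44.0 and 416 CPM, and Hspa1a, an inducible chaperone, was high in the same 2 mice with 626 and 353 CPM against 15.9 to 41.0 CPM. These 2 mice also stood highest for the list in all other kept cells, at 6808 and 3103 CPM against 1560 to 2706 CPM. They are the 2 mice with most endothelial cells in the gate.

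**Figure D5:**
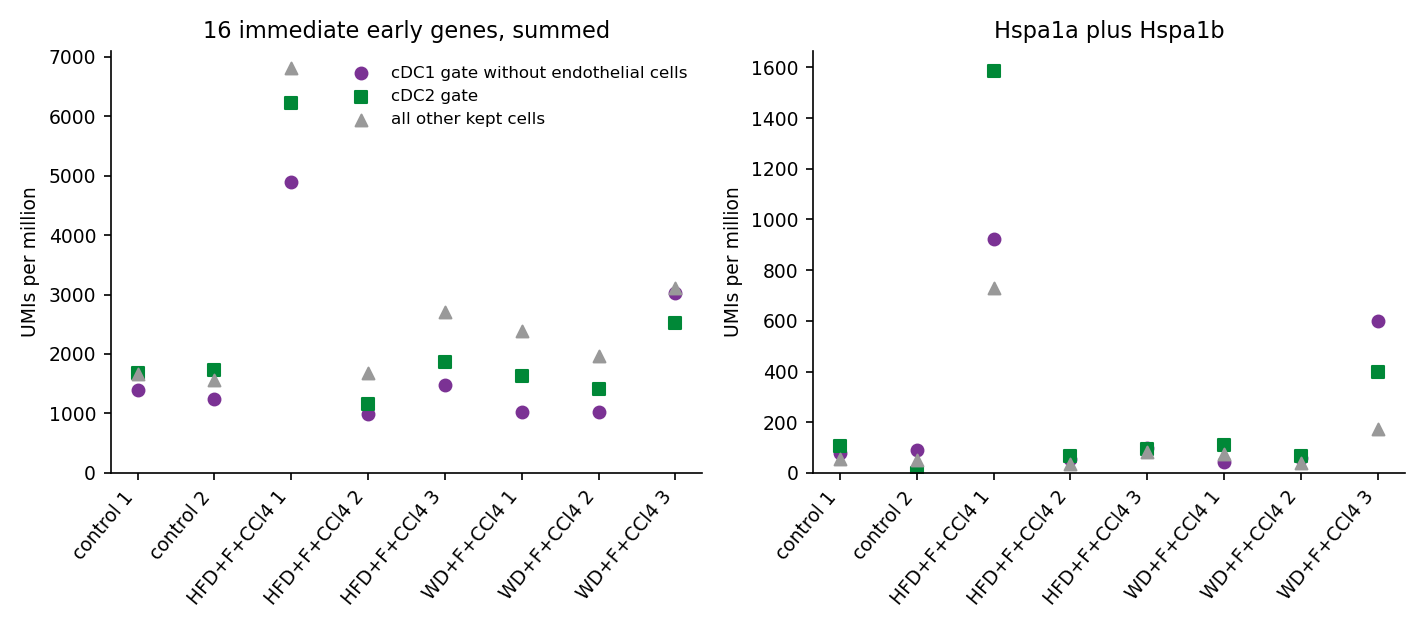
Summed CPM of 16 immediate early genes (left) and of Hspa1a plus Hspa1b (right) in each of the 8 mice, for cDC1 without endothelial cells (circles), cDC2 (squares) and all other kept cells (triangles). HFD+F+CCl4 mouse 1 is highest in the 3 cell sets in both panels, and WD+F+CCl4 mouse 3 is second in cDC1.

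Last, the change from control to NASH in cDC1 was set against that in cDC2 of the same mice, as an interaction with mouse as a block. In the whole gates 3 of 7879 genes passed (0.0381%), and 605 had an unadjusted p under 0.05. Irf8 (chr8:120736358-120756694, GRCm38, plus strand) lay at 2027 and 2099 CPM in control cDC1 and 1529 to 2250 CPM in NASH cDC1. In cDC2 it lay at 241 and 332 CPM in control mice, 64.4, 41.7 and 51.8 CPM in HFD+F+CCl4 mice, and 52.2, 55.4 and 76.4 CPM in WD+F+CCl4 mice, all below control, so that the log2 difference of the responses was 1.92 (SE 0.34, edgeR adjusted p = 0.0199). Lyz2, the lysozyme of monocytes and macrophages, lay at 497 and 789 CPM in control cDC1 and 305 to 825 CPM in NASH cDC1, but at 2829 and 2360 CPM in control cDC2 and 325 to 869 CPM in NASH cDC2 (log2 difference 1.75, SE 0.29, edgeR adjusted p = 0.0104). Cd7, a surface glycoprotein of lymphocytes, lay at 70.4 and 140 CPM in control cDC1 and 1.57 to 20.4 CPM in NASH cDC1, with 155 and 399 against 70.6 to 191 CPM in cDC2 (log2 difference -3.60, SE 0.53, edgeR adjusted p = 0.00386).

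Irf8 and Lyz2 overlapped between the groups in cDC1 and were lower in each NASH mouse in cDC2. Some sets of markers of other cells were also lower in NASH cDC2, but not all. Hepatocyte markers summed to 3380 and 1729 CPM in control cDC2 against 77.7 to 959 CPM, T cell markers to 126 and 665 against 0 to 14.5 CPM, NK cell markers to 145 and 831 against 0 to 27.3 CPM, B cell markers to 425 and 997 against 226 to 328 CPM, and monocyte-macrophage markers, led by Lyz2, to 3921 and 3624 against 1129 to 2137 CPM. Kupffer cell markers lay the other way, at 0 CPM in both control mice against 2.48 to 181.5 CPM. Neutrophil markers overlapped, at 57.9 and 99.7 against 49.7 to 5136 CPM, as did endothelial, stellate, cholangiocyte and erythroid markers. Markers of plasmacytoid dendritic cells overlapped too, at 357 and 665 against 307 to 574.5 CPM. B cells also express Irf8. The part of these other cells in the result was not tested. Without endothelial cells 11 of 7507 genes passed (0.147%), with these 3 among them. Psap, a lysosomal precursor protein, lay at 4644 and 5447 CPM in control cDC1 and 4147 to 5211 CPM in NASH cDC1, against 2588 and 2859 and 815 to 1411 CPM in cDC2 (log2 difference 1.06, SE 0.19, edgeR adjusted p = 0.0126; 0.150 in the whole gates). Prkcb, a protein kinase C of B cell and myeloid signalling, lay at 39.0 and 90.1 against 5.17 to 34.4 CPM in cDC1 and at 48.3 and 66.5 against 87.8 to 148 CPM in cDC2 (log2 difference -3.03, SE 0.60, edgeR adjusted p = 0.0299; 0.0561 in the whole gates). Ly6e, Cd52, H2-Aa, Rpl35 and Rpl39 had differences below 0 and Lgals1 above 0. The control cDC2 values come from 21 and 17 cells, and without control mouse 1 no gene passed in the whole gates. Across all genes the median difference was -0.13 with TMM scaling and 0.13 without it, so that differences are relative to that scale.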

How the data were processed

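The authors deposited UMI counts per gene and barcode of 8 libraries in 1 matrix of 55450 genes and 88581 barcodes, unfiltered for cell quality, made with Cell Ranger on GRCm38; the file header gives 4.0.0, another version than the methods. The sources used here name no removal of doublets or free RNA, and none was done here. A barcode suffix gives the mouse, and the study's filter on genes and mitochondrial UMIs kept 33562 cells of WD+F+CCl4, 31956 of HFD+F+CCl4 and 14956 of control mice. Shares were tested between groups of mice by exact permutation, two-sided. Counts summed over gated cells of each mouse were tested with edgeR 4.0.16 (TMM, filterByExpr with a minimum count of 10, quasi-likelihood, Benjamini-Hochberg over all genes) in 1 fit of 3 groups, NASH being the mean of both models; cDC1 against cDC2 was tested with mouse as a block. DESeq2 1.42.0 was an alternative, run with limma 3.58.1 in R 4.3.3; Python 3.11.15 and scipy 1.17.1 were used. The fits were tested on simulated data. Alternatives covered gate, thinning to 1000 UMIs, depth, normalization, filter, replicate block and leaving out mice; those on endothelial cells, on left-out genes and on 2 mice together were chosen after seeing the data. Members and lists were chosen with earlier results of these data known. Named were listed genes and, per contrast, up to 10 rises and 10 falls by fold change among called genes with a mean log2 CPM of at least 5 and groups that did not overlap, leaving out gate genes, mt- genes and symbols of Gm with digits or ending in Rik (5 by smallest p where none was called). Positions come from GENCODE vM21. Each mouse is 1 replicate, so p-values measure the spread between these mice; intervals cover counting error only. Levels in CPM were not divided by gene length, so that genes are compared between mice and not with each other; summed levels of lists are led by their most abundant genes. A list of lipid genes is not reported here as a whole.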

Additional observations from a re-analysis of the deposited data

Results flagged for a closer look

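The change from control to NASH differed between cDC1 and cDC2 for 3 genes by the test of the interaction (edgeR, whole gates). The log2 difference of the responses was -3.603 for Cd7, 1.749 for Lyz2 and 1.923 for Irf8. Without control mouse 1 no gene passed, and without control mouse 2 there was 1. In control cDC2 cells, Irf8 and Lyz2 lay at 241 and 332 CPM and at 2829 and 2360 CPM, from 21 and 17 cells; the part of other cells or free RNA in these counts was not tested.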

How the results depend on the processing

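The share of cDC1 in NASH against control had no stable direction. Its difference of -0.0385 points became -0.5497 after thinning to 1000 UMIs, -0.1463 among barcodes with more than 1000 genes, 0.1449 with at least 3 UMIs of Xcr1 and Clec9a, 0.0792 with 1 UMI of each, 0.0184 without cells over the 95th UMI percentile, 0.0572 among cells with Ptprc, 0.3142 with no gene leaving a cell out, 0.5433 with Csf1r not used and 0.0669 without HFD+F+CCl4 mouse 1 and WD+F+CCl4 mouse 3. Leaving out each mouse gave -0.2771 to 0.2 points. The mature share ran from -2.3771 to 0.6999 points, the latter without control mouse 1. The cDC1 share of cDC1 plus cDC2 cells kept its sign throughout, at -27.6574 to -17.6508 when each mouse was left out. Genes called in NASH against control were 64 with DESeq2, 311 with no filter beyond 1 count, 17 with NASH mice as 1 group, 31 with at least 3 gate UMIs, 4 without cycling or mature cells, 95 without endothelial cells and 121 without both mice. Leaving out each mouse gave 0 (without control mouse 1) to 30 (without WD+F+CCl4 mouse 3) genes in the whole gate, and 9 (without control mouse 1) to 127 (without HFD+F+CCl4 mouse 1) without endothelial cells. There the counts were 50 without control mouse 2, 100 and 97 without HFD+F+CCl4 mice 2 and 3, and 72, 57 and 60 without WD+F+CCl4 mice 1, 2 and 3. Between the models the counts were 5 with DESeq2, 239 with no filter, 1 with at least 3 gate UMIs and 1 without endothelial cells; leaving out each mouse gave 0 in the whole gate, and 0 to 28 without endothelial cells, 28 being without HFD+F+CCl4 mouse 2. For cDC1 against cDC2 the counts were 69 with no filter, 11 without endothelial cells, 5 without both mice, and 0 to 11 when each mouse was left out. Causes were not tested. The replicate numbers were not taken to pair mice, since the correlations of same-numbered mice ran from -0.5611 to 0.3472, and with a replicate block 1 gene was called in NASH against control and 1 between the models. Of the results for single genes under these alternatives 698 kept their side of the threshold, 224 passed it newly, 21 lost it and none changed sign. Control mouse 2, with 45 shallow cells, limits what can be seen of genes under 38.2 CPM.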

Other observations

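Some traces of other cells in the gate stood out in single mice. Haemoglobin genes summed to 780 and 335 CPM in control cDC1, 0, 63.2 and 2006 CPM in HFD+F+CCl4 mice, and 4.53, 12.9 and 3653 CPM in WD+F+CCl4 mice, so that HFD+F+CCl4 mouse 3 and WD+F+CCl4 mouse 3 stood apart. Neutrophil genes summed to 494 and 129 CPM, to 113, 2278 and 428 CPM, and to 1227, 243 and 299 CPM in the same order, highest in HFD+F+CCl4 mouse 2. Kupffer cell genes summed to 1.95 and 51.5 CPM, to 170, 64.5 and 21.6 CPM, and to 2.27, 5.17 and 170 CPM.

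Clec9a UMIs were also present in cells with endothelial markers. Of 7636 kept cells with endothelial markers, 192 held at least 2 UMIs of Clec9a (2.51%), with 80 of 1999 in WD+F+CCl4 mouse 3 (4.00%), 36 of 2012 in HFD+F+CCl4 mouse 1 (1.79%), 20 of 555 in HFD+F+CCl4 mouse 2 (3.60%) and 11 of 349 in WD+F+CCl4 mouse 1 (3.15%). Of the 7636 cells 39 held at least 2 UMIs of Xcr1. The share with at least 2 UMIs of Xcr1 and Clec9a was 0.508% in B cells and 0.816% in T cells. RNA of the endothelial cells, doublets and free RNA cannot be told apart here, nor for the 52 gated cells. Cxcl9, a chemokine that recruits CXCR3-bearing T cells, ranged widely among cDC1 of NASH mice, at 846, 278 and 723 CPM with HFD+F+CCl4 and 70.3, 2.59 and 420 CPM with WD+F+CCl4, against 367 and 245 CPM in control mice (WD+F+CCl4 against HFD+F+CCl4, edgeR adjusted p = 0.9999).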
